A study of Notamacropus eugenii with 7 samples.

Results

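Among the known miRNAs of tammar wallaby (Notamacropus eugenii) milk and blood serum, 4 are known from other mammals as regulators of the enzymes that write repressive chromatin marks. They were taken by name, miR-148 and miR-29b as regulators of DNA methyltransferases and miR-101 and miR-26 as regulators of EZH2, and make up 4 of the 346 miRNA entries, of which 102 were listed in at least 1 library. The study followed milk through lactation with 1 small RNA library at each of days 35, 75, 120, 175 and 250, and compared it with 1 library of maternal blood serum at each of days 120 and 175. The lactating females received no treatment beyond anaesthesia and oxytocin for milk letdown, milk of several females was pooled and then skimmed before extraction, and the serum came from fewer females that also gave milk. The first 2 milk days belong to phase 2A, when the young is fixed to the teat, days 120 and 175 to phase 2B, and day 250 to phase 3, when the young begins to leave the pouch. The days are those of the sample labels, and the study's text places 2 of the milk times and 1 serum time a few days earlier. The series record speaks of a duplicate for day 175, while the table has 1 column for milk of that day, and whether this column combines the duplicate is not known. The sample labels give the same extraction kit for both fluids, whereas the methods of the study give another kit for serum, and if so, fluid and kit cannot be told apart.

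DNA methyltransferases add methyl groups to cytosine. DNMT1 copies the existing pattern when DNA is replicated, and DNMT3A and DNMT3B set new marks. EZH2 is the catalytic subunit of Polycomb repressive complex 2, together with EED and SUZ12, and methylates histone H3 at silenced genes. A miRNA lowers the protein output of mRNAs that pair with its seed, the bases near its 5′ end. In mammals miR-148 and its relative miR-152 share a seed and target DNMT1, the miR-29 family targets DNMT3A and DNMT3B, and miR-101 and miR-26 target EZH2. MiR-148 is also known as an abundant miRNA of milk in other mammals. No mRNA or chromatin was measured here.

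The sequence of miR-148 is shown through the oligonucleotide pair the study designed to quantify it, since this is the miRNA with the largest share of the 4. The forward primer carries a short tail followed by the 5′ part of the miRNA written as DNA, and the stem-loop primer ends in 6 bases, in capitals, that pair with the 3′ end of the miRNA, which therefore reads CTTTGT as DNA.
miR-148 forward primer: ccgggctcagtgcactacag
miR-148 stem-loop primer, 3′ end: ACAAAG

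The values are percent of the annotated miRNA reads of a library, rounded by the authors to 3 decimals, so that each share is known to within 0.0005 percentage points by rounding. The shares carry no counts, and the read totals that the study lists for its libraries were not used here, so the errors given for single shares cover rounding only. There are no replicates of a day. A share is relative to its library: miR-191 took between 9.66% and 43.8% of milk reads and miR-10b 69.2% and 55.4% of serum reads, and when such a miRNA moves, the shares of all others move with it. The libraries listed between 48 and 86 miRNAs. Markers of epithelium (miR-141, miR-429, miR-200b and miR-200c, with the entry named miR-200a absent throughout) summed to between 0.742% and 6.50% in milk and to 0.009% and 0.024% in serum. The study lists miR-200a-5p and miR-200a-3p in milk, which these sums leave out. Red cell markers (miR-451 and miR-144, with miR-486 absent) summed to between 0% and 0.047% in milk and to 0.042% and 0.055% in serum. White cell markers summed to at most 0.008% in milk and to 0.041% and 0.12% in serum, and muscle markers to at most 0.004% in milk and to 0.017% and 0.003% in serum.

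Together the 4 miRNAs took 6.13% of milk miRNA reads on day 35, 12.1% on day 75, 9.20% on day 120, 15.99% on day 175 and 9.64% on day 250. Their serum sums were 0.264% on day 120 and 0.134% on day 175. MiR-148 made up between 87.0% and 96.5% of the sum in milk, and 75.8% and 65.7% of it in serum. Thus the sum mainly followed miR-148, and the EZH2 pair added between 0.333% and 1.58% in milk.

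**Figure D1:**
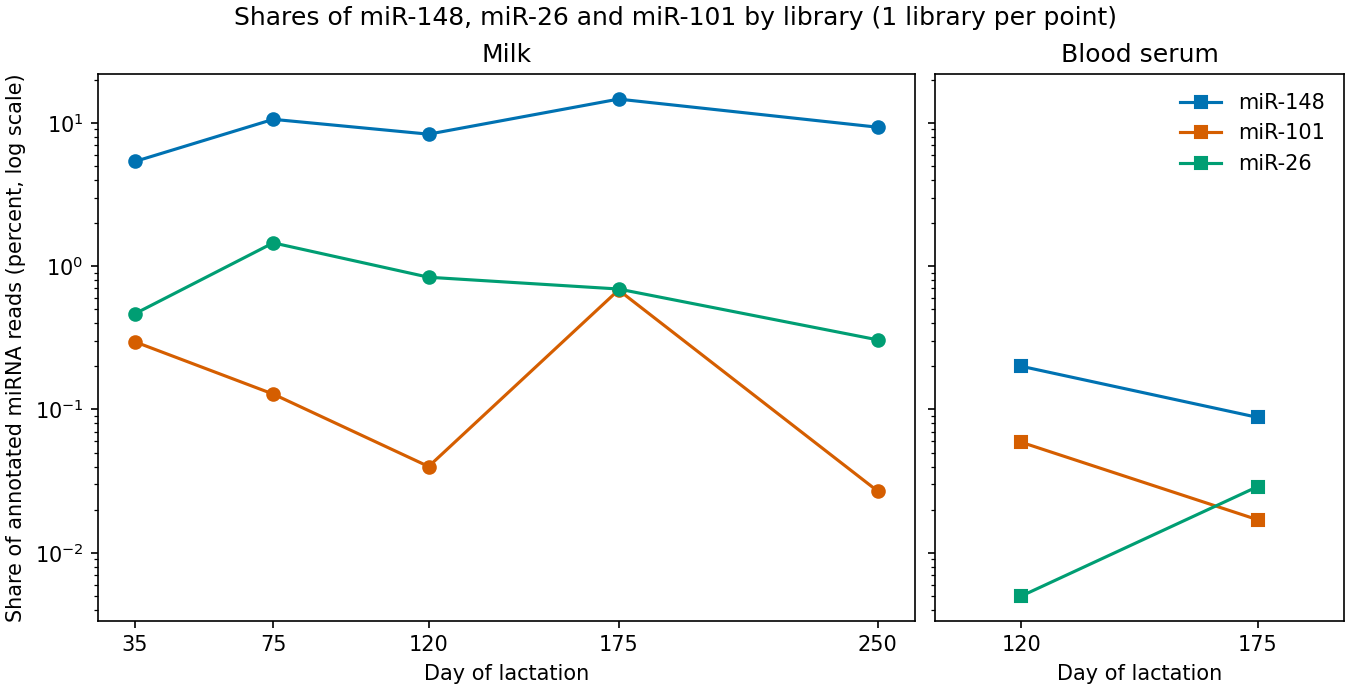
Shares of miR-148, miR-26 and miR-101 in percent of annotated miRNA reads (vertical axis, log scale) by day of lactation, with milk on the left and blood serum on the right and 1 library per point. MiR-148 stays between 5.37% and 14.6% in milk, while miR-101 falls to 0.040% on day 120, rises to 0.681% on day 175 and falls to 0.027% on day 250.

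MiR-148 took 5.37% of milk miRNA reads on day 35, 10.6% on day 75, 8.32% on day 120, 14.6% on day 175 and 9.31% on day 250. It was among the 5 most abundant miRNAs of every milk library and ranked 1 on day 175. The serum shares were lower, with 0.200% on day 120 (rank 20) and 0.088% on day 175 (rank 23). Its highest milk share was 2.72-fold above its lowest. This was a small span for milk, as 35 of the 40 miRNAs above 0 in all 5 milk libraries had a larger one and their median was 7.40-fold.

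The study also measured miR-148 by quantitative PCR in milk of several other animals at similar times, and reports that it changed over lactation. Those values were not used here. Single libraries allow no test, so a size of over 2-fold was used for a step. None of the 4 steps between milk days moved the share of miR-148 that far. The largest were 1.97-fold up from day 35 to day 75 and 1.76-fold up from day 120 to day 175. Both depended on the scaling. The log2 value of the first was 0.98 on the deposited shares and 1.26, over 2-fold, by the centred log ratio. With shares recomputed without miR-191 and miR-10b it was 0.66. That of the later step was 0.81 on the deposited shares, 0.10 when shares were recomputed without miR-191 and miR-10b, and -0.070 by the centred log ratio, which sets each miRNA against the mean of the 40 miRNAs found at every milk day.

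MiR-152, the relative of miR-148 with the same seed, was far less abundant. It took 0.031% of milk miRNA reads on day 35, 0.061% on day 75, 0.025% on day 120, 0.092% on day 175 and 0.051% on day 250. The serum of day 120 held 0.008% and that of day 175 held 0.001%. Of the 64 miRNAs that reached 0.005% in a milk library, miR-152 had the milk profile closest to that of miR-148, with a mean absolute difference of 0.30 on the log2 scale after centring each profile over the 5 milk libraries. The share of miR-148 was 173-fold that of miR-152 on days 35 and 75, 159-fold on day 175 and 183-fold on day 250. Day 120 stood apart, with a ratio of 333, which rounding leaves between 326 and 340. The ratio was 25.0 in serum on day 120, and 88.0 on day 175 with rounding bounds of 58.3 and 177. Reads could have been split between related entries by the counting. The entries named miR-148a and miR-148b were absent from every library, so which of these forms the miR-148 entry holds was not tested.

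MiR-29b, a regulator of the de novo methyltransferases, was at the edge of detection. It was listed at 0 in milk on days 120 and 250, meaning present at under 0.0005%, and was absent from the other 3 milk libraries and from both serum libraries. No fold or test can be given for it. Its relative miR-29a was listed in 3 of 5 milk libraries, with 0.001% on day 75, 0.002% on day 175 and 0.005% on day 250, and in serum with 0.005% on day 120 and 0.001% on day 175. The entries miR-29c, miR-29b-1 and miR-29b-2 were absent throughout.

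MiR-26, the more abundant of the EZH2 pair in milk, took 0.466% of milk miRNA reads on day 35, 1.45% on day 75, 0.836% on day 120, 0.692% on day 175 and 0.306% on day 250. It rose 3.12-fold from day 35 to day 75, a step at which 35.2% of 54 miRNAs rose by over 2-fold. The sum of the epithelial markers rose over the same step from 0.742% to 2.14%. Most of this was miR-141, which rose from 0.344% to 1.74%, whereas miR-429 fell from 0.398% to 0.231%. The sum was 6.50% on day 175, when miR-26 was lower. The part of these markers in the rise was not tested. MiR-26 was lower at each later day, with a fall of 2.26-fold from day 175 to day 250, where 48.3% of 58 miRNAs fell by over 2-fold. The highest share on day 75 and the lower values at each later day were also found with miR-191 and miR-10b left out and on the centred log ratio, where the last step came to a log2 value of -0.10. In serum miR-26 took 0.005% on day 120 and 0.029% on day 175. This rise of 5.80-fold lay between 5.18-fold and 6.56-fold by rounding. On the rounded shares it was the largest of the 57 miRNAs compared between the serum libraries, of which 14.0% rose by over 2-fold. First place is not settled, since miR-141 rose from 0.002% to 0.01% and rounding leaves its rise a wide interval that overlaps that of miR-26. The entries miR-26a, miR-26a-2 and miR-26b were absent throughout.

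MiR-101 had the most uneven course in milk of the 3 miRNAs with values. It took 0.296% of milk miRNA reads on day 35, 0.128% on day 75, 0.040% on day 120, 0.681% on day 175 and 0.027% on day 250. The share was thus highest on day 175 and lowest on day 250, and the span between them of 25.2-fold ranked 7 among the 40 miRNAs above 0 in all 5 milk libraries. All 4 steps exceeded 2-fold. It fell 2.31-fold from day 35 to day 75, where 22.2% of miRNAs fell by over 2-fold, and 3.20-fold from day 75 to day 120, where 27.3% did. It then rose 17.0-fold from day 120 to day 175, when 50.8% of 59 miRNAs rose by over 2-fold and the median log2 change was 1.46. The fall from day 175 to day 250 was 25.2-fold, between 24.7-fold and 25.7-fold by rounding. Only 4 of the 58 miRNAs compared fell further, and the median log2 change was -0.87. From day 35 to day 250 it fell 10.96-fold, where 35.2% of miRNAs fell by over 2-fold.

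Each of these directions was kept under both other scalings, although the first fall came to a log2 value of -0.93, under 2-fold, by the centred log ratio. The log2 rise to day 175 went from 4.09 to 3.37 without miR-191 and miR-10b and to 3.21 on the centred log ratio. The fall to day 250 went from -4.66 to -4.60 and -3.58. Red cell markers also had their highest milk sum on day 175, 0.047% against at most 0.009% on the other days, and epithelial markers also had theirs then, at 6.50% against 1.31% on day 120 and 4.48% on day 250. The part of either in the rise of miR-101 was not tested. In serum of that day red cell markers summed to 0.055% and epithelial markers to 0.024%, and miR-101 took 0.017%. On day 120 serum held 0.059% of miR-101.

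Ratios between miRNAs of 1 library do not depend on the denominator of the shares. In milk the share of miR-148 was 11.5-fold that of miR-26 on day 35, 7.27-fold on day 75, 9.95-fold on day 120, 21.1-fold on day 175 and 30.4-fold on day 250. From day 75 onwards the balance between these miRNAs thus shifted towards miR-148 at each step. Within the EZH2 pair, miR-26 was 1.57-fold above miR-101 on day 35, 11.3-fold on day 75, 20.9-fold on day 120, 1.02-fold on day 175 and 11.3-fold on day 250. Both were nearly level on day 175, and rounding leaves their ratio there between 1.01 and 1.02. In serum miR-26 was 11.8-fold below miR-101 on day 120 and 1.71-fold above it on day 175. The ratio of miR-148 to miR-101 ranged from 18.1 on day 35 to 345 on day 250 in milk, and was 3.39 and 5.18 in serum.

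**Figure D2:**
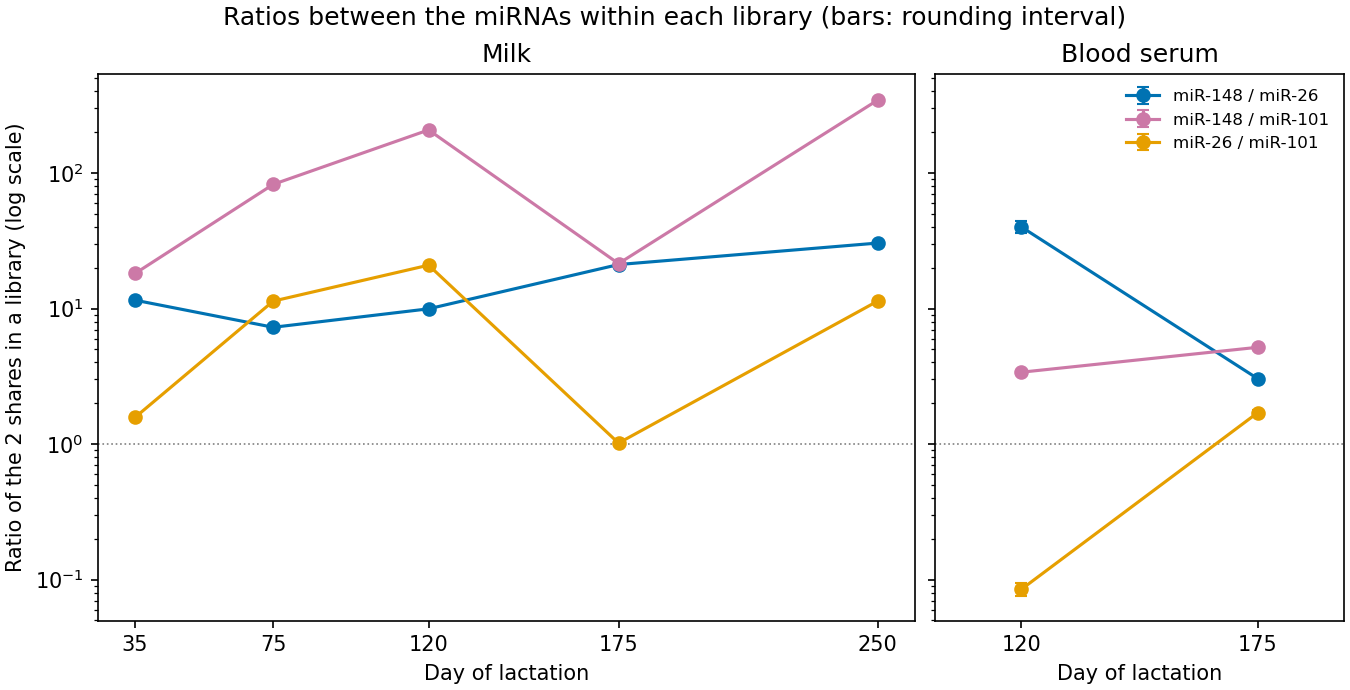
Ratio of the shares of each pair of miR-148, miR-26 and miR-101 within a library (vertical axis, log scale) by day of lactation, in milk on the left and serum on the right, with bars for the interval that rounding allows and a dotted line at 1. The ratio of miR-26 to miR-101 comes down to 1.02 in milk on day 175, and in serum it crosses 1 between day 120 and day 175.

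Milk and serum can be followed together from day 120 to day 175. Over this interval all 3 miRNAs with values moved in opposite directions in the 2 fluids. MiR-148 rose 1.76-fold in milk and fell 2.27-fold in serum, and miR-101 rose 17.0-fold in milk and fell 3.47-fold in serum, where 22.8% of miRNAs fell by over 2-fold. MiR-26 did the reverse, falling 1.21-fold in milk and rising 5.80-fold in serum. Opposite directions were common, however, as they were found for 57.7% of the 52 miRNAs above 0 in all 4 libraries and at 0.005% or more in at least 1 of them. On the centred log ratio, here set against the 52 miRNAs found in all 4 of these libraries, miR-148 fell in both fluids, with log2 changes of -0.21 in milk and -1.11 in serum, whereas miR-101 and miR-26 kept opposite directions. Over these days in serum the liver marker miR-122 fell from 0.096% to 0.009% and muscle markers from 0.017% to 0.003%, while white cell markers rose from 0.041% to 0.12%. Their part in these changes was not tested.

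**Figure D3:**
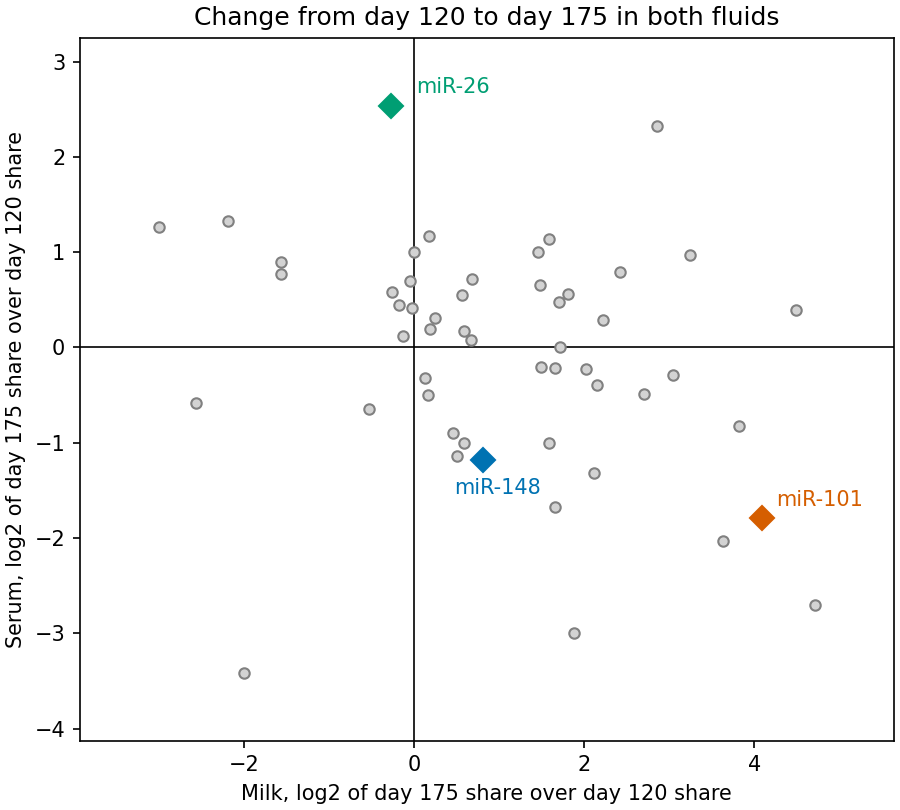
Log2 change of the share from day 120 to day 175 in milk (horizontal axis) and in serum (vertical axis) for 52 miRNAs, 1 point each, with lines at 0. MiR-148 and miR-101 lie in the quadrant of a rise in milk and a fall in serum, and miR-26, at -0.27 in milk and 2.54 in serum, lies at the top of the opposite quadrant.

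Which of these miRNAs were more abundant in milk than in the blood of the mother was asked at the days that both fluids share. On day 120 the share of miR-148 was 41.6-fold and that of miR-26 167-fold higher in milk, where 33.3% of 60 miRNAs were higher by over 2-fold. MiR-101 was 1.48-fold lower in milk on that day. On day 175 miR-148 was 166-fold, miR-101 40.1-fold and miR-26 23.9-fold higher in milk, where 57.4% of 61 miRNAs were higher by over 2-fold. The milk excess of miR-148 was larger on day 175 and that of miR-26 larger on day 120, each from 1 library per fluid. Over all miRNAs compared, the median log2 difference between milk and serum was -0.13 on day 120 and 2.06 on day 175. The log2 excess of miR-148 grew by 2.00 between the days on the deposited shares and by 0.90 on the centred log ratio.

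For a test across miRNAs the libraries of both days were taken as the replicates of a fluid. The limma fit used log2 values with 0.001 added to each percent and covered the 75 miRNAs with at least 0.001% in 2 of the 4 libraries. With Benjamini-Hochberg adjustment at 0.05, 14.7% were higher in milk, among them miR-148 and miR-26. The log2 difference of miR-148 was 6.37 (standard error 0.84, limma adjusted p = 0.0069) and that of miR-26 was 5.83 (standard error 1.002, limma adjusted p = 0.0094). Without any filter on low values, which leaves the difference unchanged, miR-26 did not pass (limma adjusted p = 0.065). With shares recomputed without miR-191 and miR-10b the log2 difference was 5.07 for miR-148 and 4.64 for miR-26. MiR-101 had a log2 difference of 2.35 with a standard error of 1.48, which did not pass (limma adjusted p = 0.37). With 1 library left out this difference lay between 0.32 and 4.38. MiR-29b was too low to be tested. Since the females were in part the same, the day was also fitted as a replicate block, which raised the limma adjusted p to 0.094 for miR-148 and 0.14 for miR-26 and left 0 of the 75 miRNAs below 0.05, with 20 at an unadjusted p under 0.05. Leaving out any 1 of the 4 libraries, which leaves a fluid with a lone library assumed to vary like the other fluid, also left 0 calls, with log2 differences of 5.78 to 6.95 for miR-148 and 4.67 to 6.99 for miR-26 and with limma adjusted p between 0.093 and 0.15 for miR-148 and between 0.12 and 0.19 for miR-26.

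**Figure D4:**
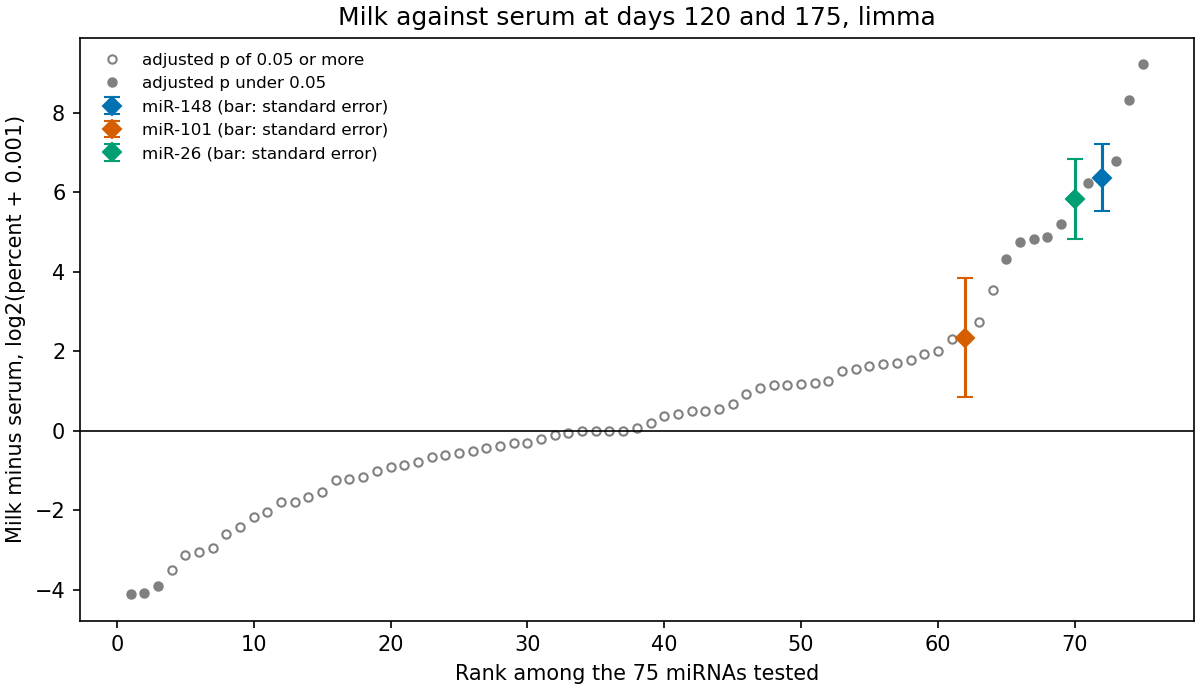
Difference between milk and serum on days 120 and 175 on the log2(percent + 0.001) scale (vertical axis) for the 75 miRNAs tested in limma, ordered by size (horizontal axis), filled where the adjusted p was under 0.05, with standard errors for miR-148, miR-26 and miR-101. MiR-148 at 6.37 and miR-26 at 5.83 lie among the called miRNAs at the upper end, and miR-101 at 2.35 does not.

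With all 5 milk libraries set against both serum libraries, every milk share of miR-148 and of miR-26 lay above every serum share. This was so for 16.5% of the 85 miRNAs with at least 0.001% in 2 libraries. For both the exact permutation test gave a two-sided p of 0.048, the smallest that 21 arrangements allow, and 0.19 after Benjamini-Hochberg adjustment over the 85. The milk shares of miR-101, from 0.027% to 0.681%, overlapped the serum shares of 0.017% and 0.059% (log2 difference 1.92, exact permutation test, two-sided p = 0.24, adjusted p = 0.51). Days 35, 75 and 250 exist in milk alone here, so day and fluid are not balanced in this comparison.

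Other miRNAs known to regulate the same machinery were followed as 2 lists. Of 8 miRNAs that regulate DNA methyltransferases, 5 were listed and 4 tested, and 0 passed limma at an adjusted p of 0.05, with 2 at an unadjusted p under 0.05. Of all 75 miRNAs tested, 14 passed and 22 had an unadjusted p under 0.05. The 2 of the list were miR-152, with a log2 difference of 3.53 (limma adjusted p = 0.077), and miR-126, an endothelial miRNA that targets DNMT1, with a log2 difference of -3.11. For miR-152 the limma adjusted p was 0.029 on the centred log ratio, where its standard error of 0.994 was also that of miR-148, miR-26 and miR-101. With the replicate block it was 0.32. It was 0.23 without the filter and 0.18 without miR-191 and miR-10b. MiR-143, which targets DNMT3A, was the most abundant of the list, with 0.865% to 5.07% in milk and 1.31% and 0.991% in serum. The median log2 difference of the 4 was 0.04, against 0.08 for all 75 miRNAs tested. MiR-140 reached 0.001% in milk on day 250 alone, and miR-185 and miR-342 were absent from all libraries.

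Of 10 miRNAs that regulate Polycomb proteins, 7 were listed and 5 tested, with a median log2 difference of 1.15 against 0.08 for all 75. The fit called 2 of the 5 higher in milk, beside 14.7% of all miRNAs tested, and 0 with the replicate block or without any 1 of the libraries. These were miR-200b, a regulator of SUZ12, and miR-200c, a regulator of the Polycomb protein BMI1. Both were listed at 0 in the serum libraries and so entered the test through their milk values alone, which leaves their count and the median of the list no support for a difference. They took 0.096% and 0.124%, and 0.033% and 0.039%, of milk reads on days 120 and 175. Both also belong to the epithelial markers. MiR-25, a further regulator of EZH2, took 1.16% and 0.528% in serum and 0.044% to 0.560% in milk, so that the fluids overlapped. Its log2 difference of -1.54 did not pass (limma adjusted p = 0.26). MiR-203 and miR-128, regulators of BMI1, had log2 differences of 0.43 and 1.15 (limma adjusted p = 0.83 and 0.38). MiR-138 and miR-214 were listed at 0 in 1 library each, and miR-124, miR-30d and miR-98 were absent.

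The miRNAs with the most similar profiles over all 7 libraries were sought among the 69 that reached 0.005% in a library, by the mean absolute difference of centred log2 values. For miR-148 they were let-7d at 0.66, miR-429 at 0.87 and let-7a at 0.88. For miR-26 they were miR-429 at 0.80, let-7f at 0.86 and let-7d at 0.93. These differences partly reflect the step between milk and serum that these miRNAs share. MiR-101 had other neighbours, miR-19b at 0.91, miR-190b at 0.93 and miR-21 at 0.95. MiR-148 and miR-26 were 0.97 apart, whereas miR-101 was 2.11 from miR-148 and 2.08 from miR-26. In milk alone miR-19b was again the closest to miR-101, at 0.62, and miR-103 was the closest to miR-26, at 0.42.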

How the data were processed

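RNA of skim milk and serum was sequenced as small RNA libraries. The authors trimmed the reads, counted known miRNAs of miRBase with miRanalyzer, expressed each miRNA relative to the annotated miRNA reads of its library and deposited these shares as percent, rounded to 3 decimals. An empty entry is an absent miRNA and 0 a low one. The deposited shares carry no counts, and the read totals that the study lists for its libraries were not used here, so no interval for counting error was computed, and 0 columns were left unused.

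Absent entries were set to 0 for log2 values, with 0.001 as pseudocount. Folds used the shares themselves, with 0.0005% as the floor for background folds, and miRNAs of at least 0.005% in either library. Limma 3.58.1 in R 4.3.3 and exact permutation tests in Python 3.11.15 (numpy 2.4.6, pandas 2.3.3, matplotlib 3.10.9) were used. The limma code was tried on simulated libraries with independent noise and no shift between days, and the permutation code on made-up values. Neither trial covers the spread between the days of these libraries. The study itself used neither limma nor permutation tests. Days 120 and 175 stand in for replicates, so p-values measure the spread between these libraries. The block rests on the study's statement that milk and serum came from the same females.

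Named miRNAs were the 4 chosen, their family entries, 2 lists of regulators, marker lists and, for each miRNA with values in all libraries, the 3 closest profiles. The miRNAs and lists were chosen with earlier results of these data known. Alternatives were other pseudocounts (0.01 and 0.0005), no filter, shares without miR-191 and miR-10b in the denominator, centred log ratios, a 3-fold limit, the replicate block and each library left out.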

Additional observations from a re-analysis of the deposited data

Results flagged for a closer look

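From day 120 to day 175 each of the 3 miRNAs with values moved one way in milk and the other way in serum on the deposited shares, with 1 library for each day and fluid, so the difference between the fluids was not tested. The log2 change of miR-148 was 0.81 in milk and -1.18 in serum. That of miR-101 was 4.09 in milk and -1.80 in serum, and that of miR-26 was -0.27 in milk and 2.54 in serum. On the centred log ratio miR-148 fell in both fluids, with log2 changes of -0.21 and -1.11, whereas miR-101 and miR-26 kept opposite directions. Of the 52 miRNAs compared in both fluids, 30 moved in opposite directions.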

How the results depend on the processing

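The limma test called 14 miRNAs between milk and serum, 27 on the centred log ratio and 0 with the replicate block or with any of the 4 libraries left out (15 to 24 then had an unadjusted p under 0.05). Neither the replicate block nor the lack of a filter can change the log2 differences of 6.37 for miR-148 and 5.83 for miR-26. With the block the limma adjusted p was 0.094 for miR-148 and 0.14 for miR-26, and without the filter 0.065 for miR-26. Without miR-191 and miR-10b the log2 differences were 5.07 for miR-148, 4.64 for miR-26 and 1.08 for miR-101. On the centred log ratio they were 5.42, 4.88 and 1.40. With each library left out they lay between 5.78 and 6.95 for miR-148 and between 4.67 and 6.99 for miR-26. Over the alternatives that kept all 4 libraries, the limma adjusted p ranged from 3.8e-06 to 0.094 for miR-148. It ranged from 2.2e-05 to 0.14 for miR-26 and from 0.30 to 0.63 for miR-101. The lowest of each came from the centred log ratio, where these miRNAs had the same standard error of 0.994. This equal error points to a variance pooled over miRNAs, so those p-values and the 27 calls are not stronger evidence than the main fit. The log2 difference of miR-101 was 0.32 without the milk of day 175 and 4.38 without the milk of day 120. The median of all log2 differences moved from 0.08 to -0.87 on the centred log ratio and to -0.79 without miR-191 and miR-10b. The difference of 5 milk and 2 serum libraries lay between 5.51 and 6.68 for miR-148 and between 4.45 and 6.77 for miR-26 with 1 library left out, where the smallest possible exact permutation p is above 0.05.

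Without miR-191 and miR-10b the log2 step from day 120 to day 175 became 0.10 for miR-148, 3.37 for miR-101 and -0.99 for miR-26. On the centred log ratio it became -0.070, 3.21 and -1.16, and the step from day 175 to day 250 became 0.43, -3.58 and -0.10. From day 35 to day 75 it came to 1.26 for miR-148, now over 2-fold, and to -0.93 for miR-101, now under it. The direction of miR-148 turned at both later steps, and its step from day 75 to day 120 turned from -0.34 to 0.07 without miR-191 and miR-10b. Without them, the step of miR-148 from day 35 to day 75 was 0.66. Of the 12 steps between milk days, 6 were over 2-fold and 4 over 3-fold, and of all 226 milk steps of miRNAs at 0.005% or more, 58.4% were over 2-fold. Over the milk libraries alone miR-148 shared 0, and miR-101 and miR-26 each 1, of their 3 closest profiles. Counting error was not computed, and the rounding limits the values near 0.001%.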
